A study of Mus musculus with 7 samples.

Results

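The genes described here are 26 mouse genes of cholesterol synthesis and its control: the sterol regulatory element-binding proteins (SREBPs) with their regulators, the enzymes from acetoacetyl-CoA to cholesterol, and a sterol carrier and a ligase of the sterol supply. They were picked by symbol as members of the pathway, at a time when earlier results of these data were known. All 26 were found among the 54838 genes of the deposited count table, and all 26 passed the filter on low counts.

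The libraries are poly-A RNA-seq of 7 mouse cultures. M colonies are 3 induced pluripotent stem cell (iPSC) colonies titled M, read here as derived from germinal center (GC) B cells that were sorted by an endogenous Myc-GFP reporter as activated by T follicular helper cells. GC colonies are 3 iPSC colonies from GC B cells taken in bulk. Both kinds of B cell came from spleens of male mice 9 days after immunization with sheep red blood cells (SRBC), were kept for 6 days with cytokines on a feeder layer of mouse embryonic fibroblasts, and were reprogrammed with doxycycline, the inducer of the reprogramming genes, for 10 days. The drug was then left out for 4 days. Each colony is 1 clone, and was passaged on gelatin and freed of feeders by a pre-plating step of 45 min. V6.5 is an established mouse embryonic stem cell line, with 1 library and none of these steps in its labels. All cultures were kept in KO-DMEM with fetal bovine serum and the cytokine LIF, which keeps mouse stem cells undifferentiated. The labels name no donor mouse, batch or date, so p-values measure only the spread between these colonies.

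Cells make cholesterol from acetyl-CoA in a long chain of enzymes, first through mevalonate and the isoprenoids, then through squalene and lanosterol, the first sterol. SREBPs are held in the endoplasmic reticulum by Scap and the Insig proteins while sterols are plentiful. When sterols run low, Scap carries them to the Golgi, where they are cut, and the freed part enters the nucleus and switches on nearly every gene of the chain. Serum supplies cultured cells with lipoprotein cholesterol, which feeds back on the same circuit.

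Library totals ran from 31505623 to 33173123 counts in M colonies and from 31612440 to 35728921 in GC colonies, against 31139508 in V6.5. M colonies 2 and 3 held 0 counts for 4 Y-linked genes, although the spleens were those of male mice. These genes held 740 counts in V6.5, and from 3732 to 4699 counts in M colony 1 and in each GC colony. Counts of called genes are therefore given with and without M colonies 2 and 3, as are the calls that were lost without them. The summed level of 12 pluripotency markers was 6539 to 7043 CPM (counts relative to the library's size, with the size scaled by TMM, the trimmed mean of M-values) in M colonies and 6544 to 6899 in GC colonies, against 8878 in V6.5. The 12 B cell markers summed to 22.1 to 23.6 CPM in M colonies and 25.1 to 27.0 in GC colonies, against 23.8 in V6.5, and Ms4a1, which encodes CD20, was at 0 in every library but M colony 2. Other markers of this list were detected in every library. Blnk stood at 5.39 to 9.16 CPM in the colonies and 5.26 CPM in V6.5, and Bcl6 at 3.25 to 5.69 CPM and 5.36 CPM.

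The first comparison set the 6 iPSC colonies against V6.5. Of the 26 genes, 13 were higher in the colonies, 0 were lower and 13 did not pass the test. A call means a Benjamini-Hochberg adjusted p under 0.05 in edgeR's quasi-likelihood test over all 20502 genes tested. By the same rule 8.76% of all tested genes were higher and 7.56% lower. The median log2 change was 0.34 over the 26 genes and 0.02 over all tested genes. The 13 genes rose by 1.25-fold to 1.78-fold, and in each of them all 6 colonies lay above V6.5. Over the whole set, all 6 colonies lay above V6.5 in 18 genes (25.7% of all tested genes) and below it in 3 genes (also 25.7%). With 1 V6.5 library, this test took its spread from the 6 colonies and assumed that a V6.5 culture would vary as much.

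Colony by colony the shift was alike. Every ratio is taken to the same V6.5 library, so the colonies are not independent here and part of this likeness is built in. The median of the 26 ratios to V6.5 was 1.25, 1.24 and 1.30 in M colonies 1 to 3 and 1.30, 1.24 and 1.24 in GC colonies 1 to 3. Between 19 and 22 of the 26 genes stood above V6.5 in each M colony, and 20 or 21 did so in each GC colony. Over all tested genes, between 49.9% and 50.5% stood above V6.5 in a colony.

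**Figure D1:**
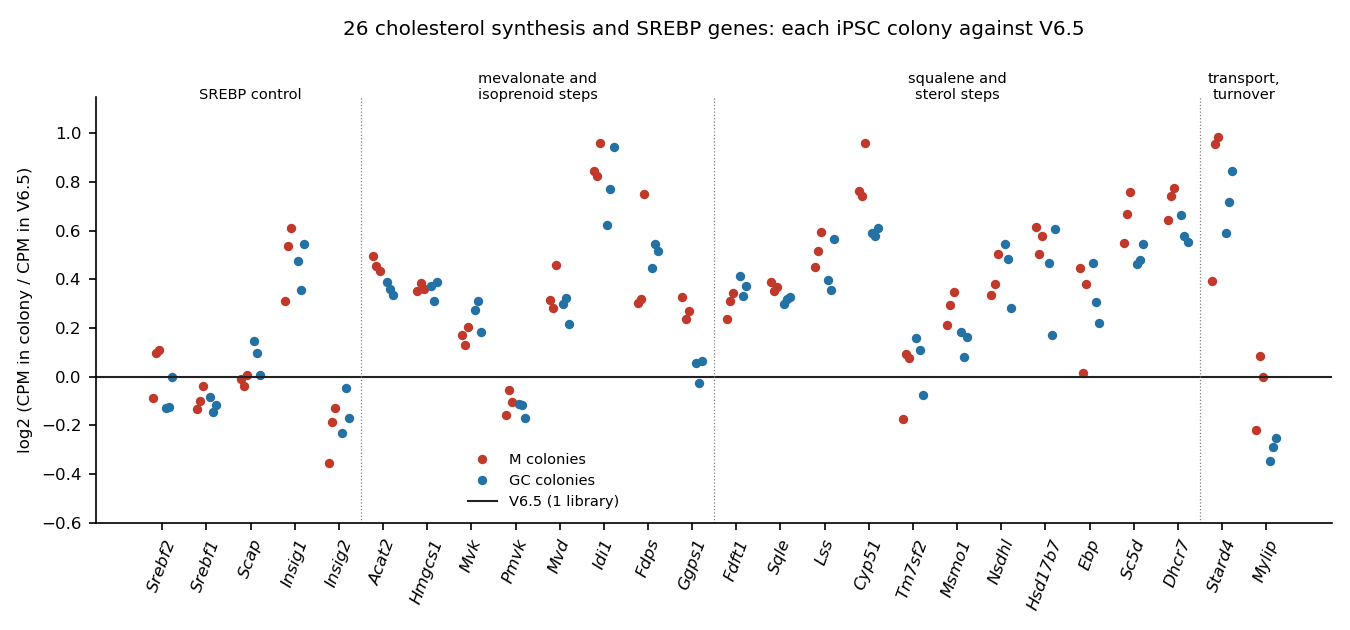
Log2 ratio of TMM-scaled CPM in each colony to that in V6.5 (vertical axis) for the 26 genes in the order of the pathway (horizontal axis). Points are single colonies, M in red and GC in blue, and the black line is the 1 V6.5 library. In Idi1, Cyp51, Sc5d, Dhcr7 and Stard4 every colony lies above the line, while in Srebf1, Insig2 and Pmvk every colony lies below it.

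Of the 5 control genes, 1 passed the test. Srebf2 encodes SREBP-2, the main activator of the sterol genes. Srebf2 stood at 364, 414 and 417 CPM in M colonies 1 to 3 and at 353, 355 and 386 CPM in GC colonies 1 to 3, against 386 CPM in V6.5. The M colonies lay on both sides of V6.5 and the GC colonies below it, GC colony 3 by very little. The log2 change of Srebf2 was -0.02 (95% interval -0.21 to 0.17), with an edgeR adjusted p of 0.915. Srebf1 encodes SREBP-1, whose forms act more on fatty acid genes. Srebf1 stood at 111, 113 and 118 CPM in M colonies 1 to 3 and at 115, 110 and 112 CPM in GC colonies 1 to 3, against 122 CPM in V6.5. All 6 colonies lay below V6.5, by a log2 change of -0.10 (95% interval -0.28 to 0.07) that did not pass the test (edgeR adjusted p = 0.456).

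Insig1, an anchor that holds Scap in the endoplasmic reticulum and is itself a target of SREBPs, rose in the colonies. It averaged 204 ± 16 CPM over the 6 colonies (SD, n = 6), against 147 CPM in V6.5. Its log2 change was 0.48 ± 0.11 (SE), with an edgeR adjusted p of 0.00986. Its paralog Insig2, which is not induced by SREBPs in the same way, averaged 20.4 ± 1.4 CPM in the colonies, against 23.2 CPM in V6.5. All 6 colonies lay below V6.5 for Insig2, and the change did not pass (log2 change -0.18, edgeR adjusted p = 0.419). Scap, the escort protein, averaged 48.3 ± 2.4 CPM in the colonies, against 47.0 CPM in V6.5, and did not pass either (log2 change 0.04). The difference between the changes of Insig1 and Insig2 was not tested.

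Of the 8 mevalonate and isoprenoid enzymes, 4 rose and 0 fell, with a median log2 change of 0.34. Idi1, the isomerase that makes the reactive isoprene unit, had the largest change of the 26 genes. Idi1 (ENSMUSG00000058258) stood at 40.8, 40.4 and 44.3 CPM in M colonies 1 to 3 and at 35.1, 38.8 and 43.8 CPM in GC colonies 1 to 3, against 22.8 CPM in V6.5. All colonies lay well above V6.5, and M and GC colonies overlapped. The log2 change was 0.83 ± 0.14 (SE), a 1.78-fold level, with an edgeR adjusted p of 9.32e-04. Acat2, the cytosolic thiolase that joins 2 acetyl-CoA, averaged 115 ± 5 CPM over the 6 colonies, against 86.2 CPM in V6.5. Hmgcs1, the cytosolic synthase of HMG-CoA, averaged 235 ± 5 CPM in the colonies, against 183 CPM in V6.5. Hmgcs1 had the smallest spread of the 26 genes over the colonies, a coefficient of variation of 1.96%. Both passed the test, with log2 changes of 0.41 and 0.36 and edgeR adjusted p of 0.00442 and 0.00587.

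Mvd, the decarboxylase that ends the mevalonate steps, rose by 0.32 on the log2 scale (edgeR adjusted p = 0.0483). It lost the call when GC colony 1, GC colony 2 or M colony 3 was left out (adjusted p of 0.0652, 0.103 and 0.0785), without M colonies 2 and 3 together (0.0872), and by limma-voom with all colonies (0.0657). The kinases Mvk and Pmvk, which phosphorylate mevalonate in turn, did not pass. Mvk averaged 27.9 ± 1.3 CPM in the colonies, against 24.1 CPM in V6.5. Pmvk averaged 34.5 ± 1.0 CPM in the colonies, against 37.5 CPM in V6.5, and was the 1 enzyme of 19 with a negative log2 change (-0.12). Ggps1, which makes the geranylgeranyl chain for protein prenylation, averaged 40.6 ± 4.0 CPM in the colonies, against 36.3 CPM in V6.5.

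Fdps, the farnesyl diphosphate synthase at the branch between sterols and other isoprenoids, had the lowest counts. It stood at 2.81, 2.84 and 3.83 CPM in M colonies 1 to 3 and at 3.11, 3.32 and 3.26 CPM in GC colonies 1 to 3, against 2.28 CPM in V6.5. All 6 colonies lay above V6.5, and the log2 change of 0.49 ± 0.30 (SE) did not pass (edgeR adjusted p = 0.31). Fdps held 701 counts over the 7 libraries. Its 4 near-identical processed pseudogenes (at least 95% identity over at least 500 bases) held 1145, so the split of reads between gene and copies is uncertain. Fdps also shares 26.7% of its exonic bases with the annotated gene Gm43738 on the same strand, which held 0 counts in every library. How reads in shared bases were assigned is not stated in the labels. Copies of Idi1, Acat2, Fdft1 and Ggps1 held 167, 360, 271 and 8 counts, against 8694, 25346, 33680 and 9125 counts of the genes.

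The promoters of 3 genes that rose are shown for the letters they share, since SREBPs act with the factors NF-Y and Sp1 at these genes. Capitals mark CCAAT, the letters bound by NF-Y, GGGCGG, the letters bound by Sp1, or TCACNCCAC, a sterol response element, on either strand. The stretches come from RefSeq (GRCm38.p6), read on the strand of the gene, and end just before its annotated start. They are those, of genes that rose and have a single RefSeq window, that lie outside every exon of the annotation used.

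Hmgcs1 (180 bases, chr13:119690171-119690350, plus strand): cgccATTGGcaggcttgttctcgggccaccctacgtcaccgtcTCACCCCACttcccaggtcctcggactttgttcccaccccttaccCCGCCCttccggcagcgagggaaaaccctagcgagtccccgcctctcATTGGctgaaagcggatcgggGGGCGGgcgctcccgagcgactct
Mvd (150 bases, chr8:122443423-122443572, minus strand): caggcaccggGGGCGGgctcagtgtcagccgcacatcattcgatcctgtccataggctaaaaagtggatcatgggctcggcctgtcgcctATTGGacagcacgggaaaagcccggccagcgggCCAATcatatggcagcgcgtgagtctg
Sc5d (150 bases, chr9:42264301-42264450, minus strand): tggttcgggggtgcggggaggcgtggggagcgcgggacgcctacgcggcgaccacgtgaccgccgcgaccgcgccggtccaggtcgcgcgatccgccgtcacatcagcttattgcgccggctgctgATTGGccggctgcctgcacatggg

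The Hmgcs1 stretch holds 1 TCACNCCAC, 2 CCAAT and 2 GGGCGG. It was printed at 180 bases, against 150 for Mvd and Sc5d, and its CCAAT at position -176 from the start lies beyond 150 bases. The Mvd stretch holds 2 CCAAT and 1 GGGCGG, and the Sc5d stretch holds 1 CCAAT. RefSeq windows of 250 bases before and 50 after the start were at hand for 22 of the 26 genes (not for Fdps, Fdft1, Sqle and Stard4), and both strands were searched. CCAAT was present in 20 of the 22, against 41.1% of all 27025 genes with a window and 42.6% of the genes tested. GGGCGG was present in 20 of the 22, against 38.2% of all genes and 64.0% of the genes tested. TCACNCCAC was present in 1 of the 22, that of Hmgcs1, against 1.44% of all genes and 1.52% of the genes tested. With 1 letter freed (TCACNCCNC, which also covers every TCACNCCAC) it was present in 2 of the 22, those of Hmgcs1 and Insig2. The shares for this broader motif were 5.76% of all genes and 7.47% of the genes tested. These counts describe letters in short windows and say nothing of binding.

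Of the 11 squalene and sterol enzymes, 7 rose and 0 fell, and all 11 had a positive log2 change, with a median of 0.43. Fdft1, the squalene synthase that commits carbon to sterols, averaged 152 ± 6 CPM in the colonies, against 120 CPM in V6.5 (log2 change 0.34, edgeR adjusted p = 0.0151). Fdft1 shares 18.3% of its exonic bases with Ctsb on the opposite strand, and no label tells whether the count used strand. Sqle, the epoxidase and a rate-limiting step, averaged 110 ± 3 CPM in the colonies, against 87.2 CPM in V6.5 (log2 change 0.34, edgeR adjusted p = 0.0125).

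Lss closes the ring to lanosterol. It stood at 97.0, 102 and 107 CPM in M colonies 1 to 3 and at 93.5, 90.9 and 105 CPM in GC colonies 1 to 3, against 71.0 CPM in V6.5. Every colony lay above V6.5, by a log2 change of 0.48 ± 0.10 (SE, edgeR adjusted p = 0.00595). Cyp51, the demethylase of lanosterol, came next in the chain. Cyp51 stood at 128, 126 and 146 CPM in M colonies 1 to 3 and at 113, 112 and 115 CPM in GC colonies 1 to 3, against 75.3 CPM in V6.5. The M colonies lay above the GC colonies and both above V6.5. The log2 change against V6.5 was 0.71 ± 0.10 (SE), a 1.63-fold level, with an edgeR adjusted p of 3.19e-04. It shares 3.76% of its exonic bases with Akap9 on the opposite strand.

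The middle sterol steps were less uniform. Nsdhl, which takes part in removing methyl groups and is X-linked, averaged 34.2 ± 2.4 CPM in the colonies, against 25.4 CPM in V6.5. It passed with an edgeR adjusted p of 0.0416, and lost the call when GC colony 1, GC colony 2, M colony 2 or M colony 3 was left out (adjusted p of 0.0634, 0.0855, 0.0508 and 0.0705). The call was also lost without M colonies 2 and 3 together (0.0893) and by limma-voom with all colonies (0.0593). Hsd17b7, which works in the same demethylation, stood at 21.1, 19.6 and 20.6 CPM in M colonies 1 to 3 and at 19.1, 15.5 and 21.0 CPM in GC colonies 1 to 3, against 13.8 CPM in V6.5. All 6 colonies lay above V6.5, and GC colony 2 lay below the other 5. The log2 change of 0.50 ± 0.17 (SE) did not pass (edgeR adjusted p = 0.0617). It passed in 5 of 14 other settings: without GC colony 2 (0.0381) and, with all colonies, by DESeq2 (0.0368), on library totals (0.0349), with no filter on low counts (0.0350) and with a filter at 1 CPM (0.0449). Msmo1, the oxidase of these methyl groups, averaged 107 ± 7 CPM in the colonies, against 92.6 CPM in V6.5. Ebp, an X-linked sterol isomerase, averaged 26.4 ± 3.0 CPM in the colonies, against 21.2 CPM in V6.5. Tm7sf2, a sterol reductase, averaged 17.1 ± 1.5 CPM in the colonies, against 16.7 CPM in V6.5. None of these 3 passed (edgeR adjusted p from 0.131 to 0.915), although all 6 colonies lay above V6.5 for Msmo1 and Ebp. Msmo1 passed in 1 of 14 other settings, on library totals (edgeR adjusted p = 0.0476).

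The last steps before cholesterol were among the larger changes. Sc5d, a desaturase, stood at 35.5, 38.6 and 41.0 CPM in M colonies 1 to 3 and at 33.4, 33.8 and 35.4 CPM in GC colonies 1 to 3, against 24.2 CPM in V6.5. Every colony lay above V6.5, by a log2 change of 0.58 ± 0.12 (SE, edgeR adjusted p = 0.00527). Dhcr7, the reductase of the last step in one branch, is the gene mutated in human Smith-Lemli-Opitz syndrome. Dhcr7 stood at 96.3, 103 and 106 CPM in M colonies 1 to 3 and at 97.8, 92.1 and 90.4 CPM in GC colonies 1 to 3, against 61.7 CPM in V6.5. All 6 lay far above V6.5, with a log2 change of 0.66 ± 0.10 (SE), a 1.58-fold level, and an edgeR adjusted p of 3.72e-04.

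Stard4 and Mylip bear on sterol movement and supply. Stard4 encodes a soluble carrier of cholesterol between membranes. It stood at 62.4, 92.1 and 94.0 CPM in M colonies 1 to 3 and at 71.5, 78.1 and 85.4 CPM in GC colonies 1 to 3, against 47.5 CPM in V6.5. All 6 colonies lay above V6.5, M colony 1 nearest to it, and the spread over the colonies was the widest of the 26 genes, a coefficient of variation of 15.2%. The log2 change was 0.76 ± 0.18 (SE), a 1.69-fold level, with an edgeR adjusted p of 0.0112. Mylip encodes the ligase IDOL, which marks lipoprotein receptors for degradation. It averaged 8.90 ± 1.10 CPM in the colonies, against 9.95 CPM in V6.5, and did not pass (log2 change -0.17, edgeR adjusted p = 0.593).

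**Figure D2:**
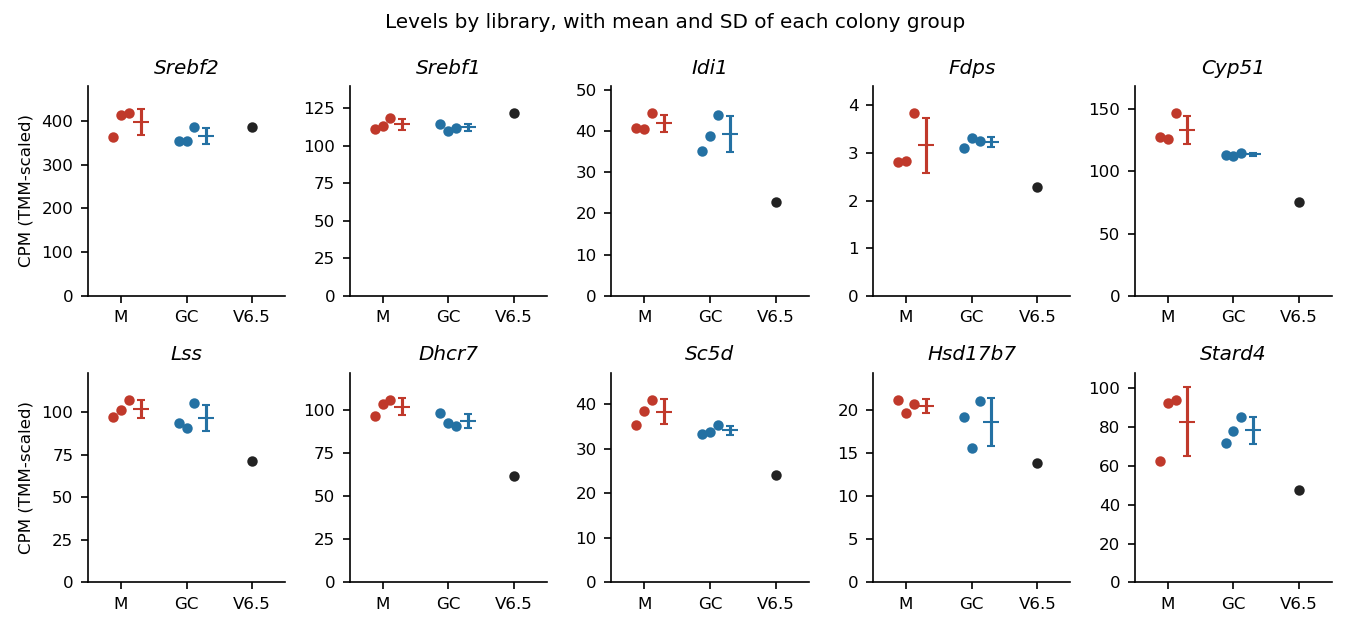
TMM-scaled CPM (vertical axis, from 0) in each library for Srebf2, Srebf1 and the 8 genes with the largest change against V6.5. Dots are libraries, and the crosses beside them are the mean and SD of 3 colonies. In those 8 genes V6.5 is the lowest library, from 2.28 CPM in Fdps to 75.3 CPM in Cyp51, whereas for Srebf2 it lies within the range of the colonies.

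Of the 13 calls against V6.5, 10 (Insig1, Acat2, Hmgcs1, Idi1, Sqle, Lss, Cyp51, Sc5d, Dhcr7 and Stard4) were kept under each of 14 other settings. Fdft1 was lost in 1 of the 14, without M colonies 2 and 3 (adjusted p = 0.0507). Without M colonies 2 and 3, 10 of the 26 genes were higher and 0 lower. Other marker genes moved in the same contrast. The 12 primitive endoderm markers summed to 2464 to 4184 CPM in M colonies and 2093 to 2583 in GC colonies, against 505 in V6.5, and all 12 passed as higher. The 16 fibroblast markers summed to 934 to 1234 CPM in M colonies and 901 to 1039 in GC colonies, against 609 in V6.5. All of their 15 tested genes had a positive log2 change, 7 passed as higher and 0 as lower. Among the 7 were Col1a1, Col1a2 and Fbln2. Pdgfra was also among them, and it is on the primitive endoderm list as well. Col1a1 averaged 333 CPM in the colonies against 212 CPM in V6.5, Col1a2 168 against 91.5 CPM, and Fbln2 280 against 146 CPM. The fibroblast marker Lum was at 0 to 0.13 CPM in every library. Of 12 pluripotency markers, 9 passed as lower and 1 as higher. Their part in the sterol gene result was not tested. In bulk RNA a change in the mix of cells and a change of RNA per cell cannot be told apart.

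Each colony group was also set against V6.5 alone. The comparisons share the V6.5 library, so they are not independent. M colonies had 13 of the 26 genes higher and 0 lower (8.84% and 7.37% of all tested genes), and GC colonies had 11 higher and 0 lower (7.53% and 5.51%). Without M colonies 2 and 3, 1 M library is set against 1 V6.5 library, and the spread comes from the GC colonies alone. In that setting 5 of the 26 passed: Acat2, Idi1, Cyp51, Sc5d and Dhcr7. The calls lost there were those of Insig1, Hmgcs1, Mvd, Fdft1, Sqle, Lss, Hsd17b7 and Stard4, with adjusted p from 0.0505 to 0.214. Without GC colony 2, 7 of the 26 were higher in GC colonies, and Acat2, Sqle, Sc5d and Stard4 lost their calls (adjusted p of 0.0574, 0.0964, 0.0545 and 0.0501). The log2 change of Idi1 was 0.88 in M colonies and 0.79 in GC colonies, each over V6.5. That of Cyp51 was 0.83 in M colonies and 0.59 in GC colonies. That of Dhcr7 was 0.72 in M colonies and 0.60 in GC colonies, and that of Stard4 was 0.80 in M colonies (0.40 without M colonies 2 and 3, adjusted p = 0.115) and 0.72 in GC colonies. Whether such pairs differ is the question of the next comparison.

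The second comparison set M colonies against GC colonies, to ask whether the activated B cell of origin left a difference in these genes. M colonies 2 and 3 lacked the Y-linked counts that every GC colony held. For those colonies the source and the absence of Y-linked counts cannot be told apart. The edgeR test called none: 0 of the 26 genes were higher and 0 lower, against 1.7% and 2.27% of all 18166 genes tested. At an unadjusted p under 0.05 there were 2, Cyp51 and Ggps1. DESeq2 called 1 gene, Cyp51, and limma-voom 0. The log2 changes ran from -0.10 (Scap) to 0.26 (Mylip), with a median of 0.06, against 0.00 over all tested genes. The 95% intervals of the 26 changes lay between -0.49 (Fdps) and 0.55 (Mylip).

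Cyp51 came nearest to a call. It averaged 133 ± 11 CPM in M colonies and 114 ± 1 CPM in GC colonies (SD, n = 3 each), with a log2 change of 0.23 ± 0.07 (SE) and an edgeR adjusted p of 0.101. Over the other settings its adjusted p ran from 0.0413 to 0.543, and it passed with DESeq2 (0.0496) and with no filter on low counts (0.0413). Ggps1 averaged 44.0 ± 1.4 CPM in M colonies and 37.1 ± 1.3 CPM in GC colonies, with a log2 change of 0.24 ± 0.08 (SE) and an edgeR adjusted p of 0.109. It shares 5.44% of its exonic bases with Arid4b on the opposite strand.

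M and GC values did not overlap in 8 of the 26 genes, against 22.1% of all tested genes. M colonies were the higher in Acat2, Ggps1, Sqle, Cyp51, Msmo1, Sc5d and Mylip (7 genes, against 10.1% of tested genes) and the lower in Scap (1 gene, against 12% of tested genes). The gap was narrow in Scap, where the highest M colony stood at 47.280 CPM and the lowest GC colony at 47.284 CPM. In Sc5d the lowest M colony stood at 35.454 CPM and the highest GC colony at 35.392 CPM. In Srebf2, M colonies averaged 398 ± 30 CPM and GC colonies 365 ± 19 CPM, with overlapping values (log2 change 0.12, 95% interval -0.02 to 0.27). In Hmgcs1 the means were 236 ± 3 CPM in M colonies and 234 ± 7 CPM in GC colonies (log2 change 0.01, 95% interval -0.12 to 0.13). Stard4 depended on which M colony was used: its log2 change of 0.08 became -0.33 without M colonies 2 and 3, with no call in either case.

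**Figure D3:**
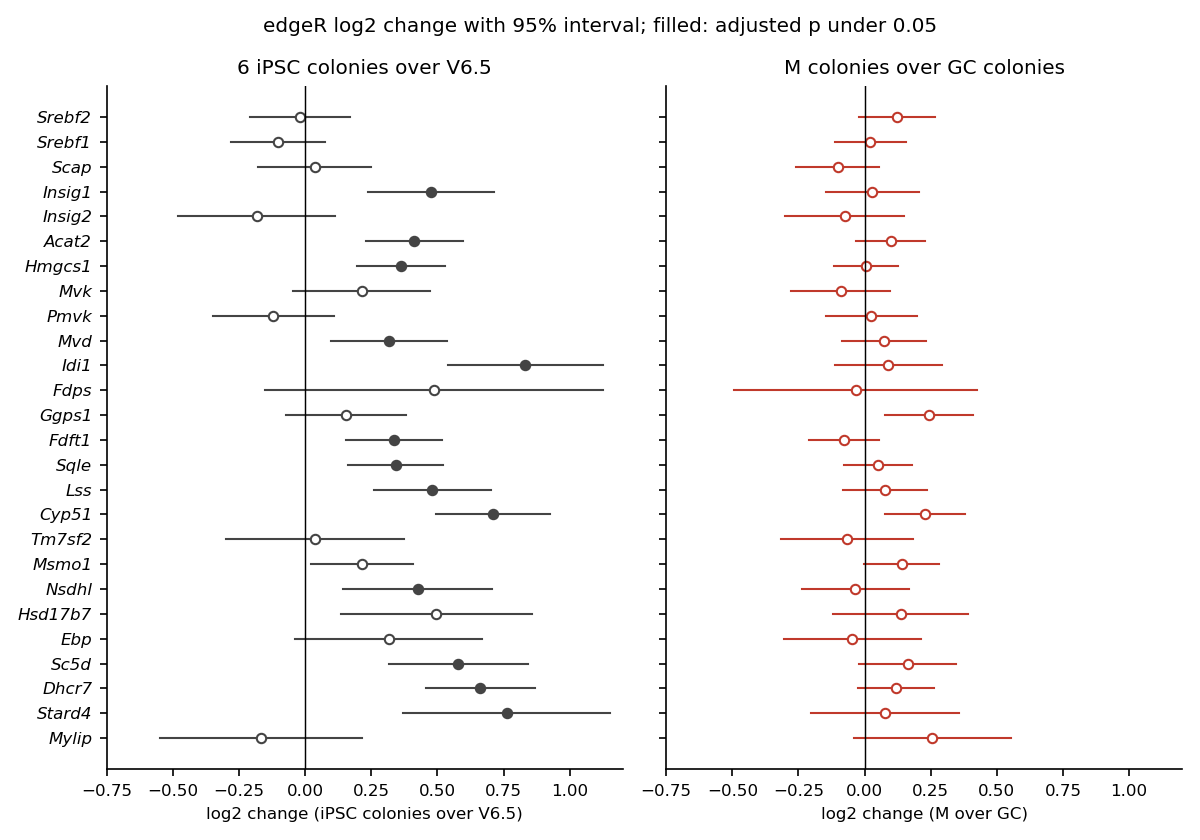
Log2 change with its 95% interval from edgeR for the 26 genes, 6 colonies over V6.5 (left panel) and M over GC colonies (right panel). Filled points have an adjusted p under 0.05. On the left 13 points are filled, all to the right of 0, and on the right 0 are filled, with changes between -0.10 and 0.26.

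Levels between genes were compared per kilobase of annotated exon, with the exons of all transcripts of a gene joined. In the 6 colonies they ran from 0.76 CPM per kb in Fdps to 66.1 CPM per kb in Insig1. The Fdps level is uncertain because of the copies and shared bases given above. After Insig1 came Srebf2 (53.1 CPM per kb), Hmgcs1 (51.2), Acat2 (45.1), Fdft1 (35.9), Mvd (35.0) and Cyp51 (28.0). In V6.5 the same genes stood at 47.5 CPM per kb (Insig1), 53.8 (Srebf2), 39.8 (Hmgcs1), 33.9 (Acat2), 28.4 (Fdft1), 28.1 (Mvd) and 17.0 (Cyp51), so Srebf2 and not Insig1 was first there. Tm7sf2 (3.89 CPM per kb in the colonies), Hsd17b7 (3.82) and Mylip (2.75) were the lowest beside Fdps. The Tm7sf2 level is uncertain too, since the gene shares 12.1% of its exonic bases with Vps51 on the same strand. Over the 6 colonies the coefficient of variation had a median of 7.12% over the 26 genes.

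Genes of neighbouring pathways were counted in the same fit, the 6 colonies over V6.5. Of 18 fatty acid synthesis genes, many of them SREBP-1 targets, 5 rose and 0 fell, with a median log2 change of 0.18. Me1, which supplies NADPH, rose by 0.71 on the log2 scale, with 93.3 ± 17.7 CPM in the colonies, against 56.9 CPM in V6.5. Fads2, the desaturase of polyunsaturated fatty acids, rose by 0.60, with 62.3 ± 3.6 CPM in the colonies, against 40.9 CPM in V6.5. Mid1ip1, a partner of acetyl-CoA carboxylase, rose by 0.54, and Fasn, the fatty acid synthase, rose by 0.41. Without GC colony 2, 3 of the 18 were higher and 0 lower, and without M colonies 2 and 3, 3 were higher and 1 lower. Mid1ip1 lost its call in both settings (adjusted p up to 0.0611).

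Of 18 genes of SREBP processing and of the degradation of the rate-limiting reductase, 1 rose and 2 fell. Mbtps1 encodes the Site-1 protease that makes the first cut in SREBPs. It fell by 0.46 on the log2 scale, to 201 ± 6 CPM in the colonies, against 277 CPM in V6.5 (edgeR adjusted p = 8.02e-04). Erlin1, an endoplasmic reticulum scaffold of that degradation, fell by 0.38, and Sec24d, a coat protein of vesicles to the Golgi, rose by 0.41. The Erlin1 call was lost on the scale of library totals, and when GC colony 1, GC colony 2 or M colony 3 was left out (adjusted p up to 0.0899).

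Of 16 genes of sterol transport and esterification, 4 rose and 2 fell. Osbpl5, a lipid transfer protein, rose by 1.43, with 10.2 ± 0.7 CPM in the colonies, against 3.79 CPM in V6.5. Stard10, a phospholipid carrier, rose by 1.30, with 23.4 ± 4.8 CPM in the colonies, against 9.45 CPM in V6.5. Soat1, the enzyme that stores cholesterol as its ester, rose by 0.58, with 106 ± 29 CPM in the colonies, against 68.8 CPM in V6.5. Gramd1c, of a family that moves sterol from the plasma membrane, rose by 2.27 from low levels, 1.32 ± 0.34 CPM in the colonies, against 0.268 CPM in V6.5, and lost its call by limma-voom (adjusted p = 0.119). The 2 that fell, named after their values were seen, were Gramd1a of the same family and Scarb1, a receptor that takes up cholesterol from lipoproteins. Gramd1a stood at 52.5 ± 3.7 CPM in the colonies, against 68.6 CPM in V6.5 (log2 change -0.39, edgeR adjusted p = 0.0108). Scarb1 stood at 63.8 ± 5.0 CPM in the colonies, against 81.2 CPM in V6.5 (log2 change -0.35, edgeR adjusted p = 0.0449). The Scarb1 call was lost in 5 of 14 other settings, by limma-voom (0.0501), on library totals (0.115), and when GC colony 1 (0.0679), GC colony 2 (0.0816) or M colony 2 (0.0503) was left out.

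The other lists had few calls. Of 12 genes of LXR, the receptor of oxidised sterols, and sterol efflux, 1 rose (Rxra, its partner receptor) and 1 fell (Abcg1, an exporter, by 0.43). Both calls were lost without GC colony 2, and that of Rxra also without M colonies 2 and 3 (adjusted p up to 0.0735 for Rxra and 0.0520 for Abcg1 over the other settings). Of 14 genes that use isoprenoids, 0 rose and 1 fell, Coq2 of ubiquinone synthesis, whose call was lost on library totals (adjusted p = 0.0556). Of 10 tested partners of sterol enzymes, 2 rose (Pgrmc1 and Pgrmc2, which bind heme) and 1 fell (Cyb5b, a cytochrome b5, by 0.43). Both rises were lost without GC colony 2, and that of Pgrmc2 also without any other single colony but GC colony 3.

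**Figure D4:**
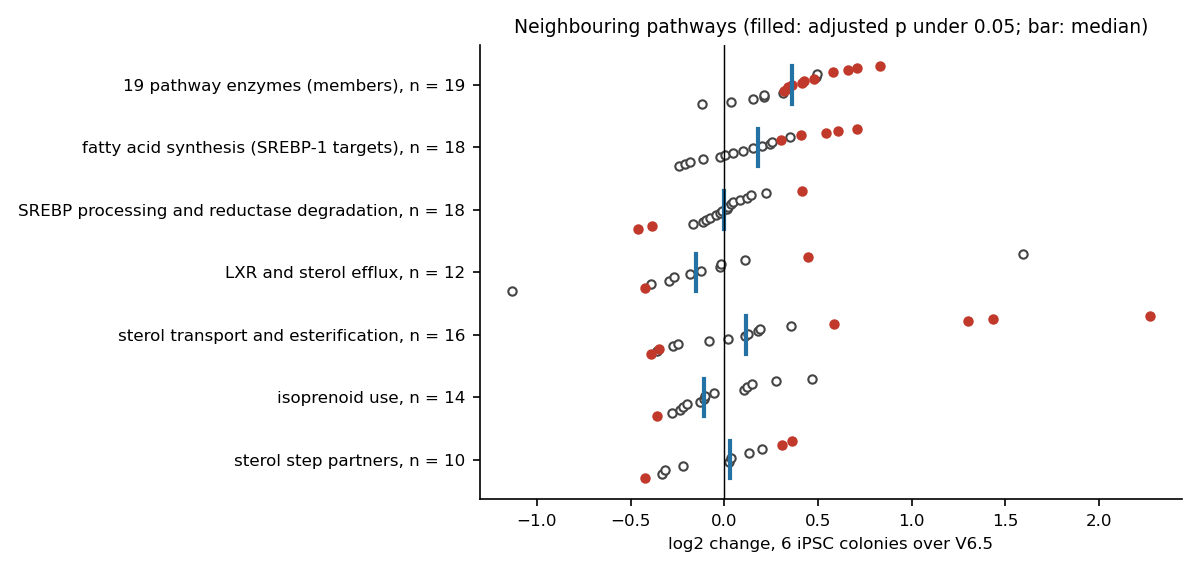
Log2 change of the 6 colonies over V6.5 (horizontal axis) for the 19 pathway enzymes and 6 neighbouring lists (rows, with the number of genes tested). Each point is a gene, filled where its adjusted p was under 0.05, and bars are medians. The bar of the pathway enzymes lies at 0.36 and that of fatty acid synthesis at 0.18, while those of the other lists lie between -0.15 and 0.12.

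Between M and GC colonies the neighbouring lists gave 4 calls. Soat1 rose in M colonies by 0.68 on the log2 scale (edgeR adjusted p = 5.51e-04). It stood at 135, 115 and 144 CPM in M colonies 1 to 3 and at 84.0, 79.1 and 80.8 CPM in GC colonies 1 to 3, with no overlap. This call was kept in all 16 other settings, including the one without M colonies 2 and 3. In the same contrast the 12 primitive endoderm markers had a median log2 change of 0.64, all 12 were positive, and 3 (Dab2, Cubn and Lrp2) passed as higher. Their summed level was 3954, 2464 and 4184 CPM in M colonies 1 to 3 and 2475, 2093 and 2583 CPM in GC colonies 1 to 3, and their part in the result was not tested. Cyb5b rose by 0.33 and was lost in 1 of the 16 settings, without GC colony 2 (adjusted p = 0.0887). Scd2, a stearoyl-CoA desaturase, and Acsl3, which activates fatty acids, rose by 0.33 and 0.36. Both were lost when GC colony 2, M colony 3 or the pair of M colonies 2 and 3 was left out, with an adjusted p of up to 0.362 for Scd2 and 0.217 for Acsl3. Against V6.5, at 785 CPM for Scd2 and 76.9 CPM for Acsl3, M colonies lay above and GC colonies below.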

How the data were processed

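The data are raw counts per gene for 7 libraries, deposited by the authors without normalization. STAR 2.7.10a, featureCounts 2.0.6, DESeq2 and the build mm10 (GRCm38) are named in the submitters' processing notes. Whether the libraries were stranded differs between the labels. Among counts of 1 to 49, 68.5% to 72.2% were even, and halving all counts left 13 genes called against V6.5. Names and exons came from GENCODE M21, which matched 54809 of 54838 genes. Groups came from sample titles. After filterByExpr and TMM scaling, edgeR 4.0.16 in R 4.3.3 gave two-sided quasi-likelihood tests, Benjamini-Hochberg adjusted over all tested genes. The tests were also run on simulated counts with the same dispersion in all genes and libraries. Such counts cannot show how a V6.5 culture varies, or how the spread differs between genes. M and GC colonies were compared in a fit of 6 libraries, and the colonies with V6.5 in a fit of 7. A standard error (SE) is the log2 change over the square root of F. DESeq2 1.42.0, limma 3.58.1, other scalings and filters and left-out colonies were alternatives. Values in every library are given for both Srebf genes and the 8 largest changes against V6.5, and at most 4 called genes, with exceptions stated, are named from each neighbouring list. Members and lists were chosen with earlier results of these data known. Depth allows 3 counts, or 0.0840 to 0.0963 CPM, at a count of 0, and the lowest count of a member was 68. This covers counting error only.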

Additional observations from a re-analysis of the deposited data

Results flagged for a closer look

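Over the 6 iPSC colonies, Hsd17b7 stood lowest in GC colony 2, at 15.5 CPM, and its gap to the nearest colony was 0.636 of the whole range, above Dixon's critical value for 6 values. Each of the 26 genes was looked at in this way, and about 1 gene in 20 would pass by chance. Whether Hsd17b7 passed against V6.5 changed without that colony and also with the tool, the scale and the filter, as given above.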

How the results depend on the processing

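No call changed sign under any alternative. Over the alternatives, between 10 and 15 of the 26 genes were higher in the colonies than in V6.5 (13 as reported), from 11 to 13 when 1 colony was left out, and 0 were lower. For M over V6.5, the count was 5 without M colonies 2 and 3, and from 10 to 13 when 1 M colony was left out. For GC over V6.5, it was 7 to 12 when 1 GC colony was left out, with 7 without GC replicate 2. For M over GC, 1 gene (Cyp51) was higher with DESeq2 and 1 with no low-count filter, and 0 in the other settings. In a fit with a replicate block (the colony number), 0 of the 26 genes were called in either direction, and 963 genes were called in all, against 721. Same-numbered M and GC colonies had deviations correlated at 0.0729, 0.0750 and 0.164, the highest value for each number being its own. M colony 1 with GC colony 2 was close to the first 2 of these, at 0.0617. The deviations are taken from means of 3 colonies, which ties the values to each other, so they cannot decide whether the numbers mark pairs. The median over all tested genes of the colonies over V6.5 was 0.18 with DESeq2 and 0.17 with no filter, and 0.09 with library totals. With the broader sterol motif, 2 genes matched in place of 1. What 1 V6.5 library can show is limited, since its own spread was not measured. The settings for genes of neighbouring lists were added after the data were seen.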
